A study of Mus musculus with 12 samples.

Results

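The compounds E5 and E14 are small molecules, known here only by these codes. They were compared with the activated control on the arrays of cultured mouse astrocytes. The comparison used 3 of the 12 arrays of the study, chosen by their labels: activated control, activated cells with E5, and activated cells with E14. The cells came from 1 neural stem cell line, labelled Rosa25/OG2, by 4 days of differentiation in 10% serum and 14 days of maturation. The activated control received lipopolysaccharide (LPS, 1 µg/ml), a bacterial cell wall component, and interferon-gamma (10 ng/ml). The E5 and E14 cultures received the same activation followed by the compound for 4 h. The non-activated control received neither stimuli nor compound, and 8 further arrays held activated cells with E4, E18, E19, E20, E21, E23, E29 or E33. Doses of the compounds are not in the labels. Each group was 1 array, so every difference is between single arrays, has no measured error and was not tested, and a compound cannot be told apart from the culture and array that carried it. In such total RNA, fewer responding cells and less RNA per cell cannot be told apart.

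LPS is sensed by Toll-like receptor 4, which frees the transcription factor NF-kB from its inhibitors and, through a second branch, leads to type I interferon. Interferon-gamma acts through its own receptor and switches on guanylate-binding proteins, antigen presentation and the chemokines that attract T cells. NF-kB also switches on its own inhibitors, so chemokine genes and feedback genes are usually induced side by side in reactive astrocytes.

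Of 16593 genes on the array, 7561 were detected (detection p-value under 0.01) on any of the 3 arrays and 6976 on all 3. The arrays detected 10281 (activated control), 10354 (E5) and 10575 (E14) of 25697 probes. Over all 12 the range was 9106 (E29) to 10719 (non-activated control). Values are log2 of background-corrected, quantile-normalised intensity, and changes are differences of these values. A value that was not detected was raised to the lowest detected level of its array, which was 5.52 for the control, 5.50 for E5 and 5.42 for E14, so a change that meets this floor is given as "at least". Of 16 astrocyte markers with a probe, 14 were detected on each of the 3 arrays; S100b and Sparcl1 were not. Microglia markers were not detected on these arrays (0 of 12 with a probe). Of the neural stem cell markers, 5 of 10 with a probe were detected on each array, with median changes of -0.17 with E5 and -0.20 with E14 and 4 of 5 below the control with each. Of the neuron markers 5 of 12 were measured, with medians of -0.03 and -0.03, and of the oligodendrocyte markers 2 of 9, with medians of -0.01 and 0.08; the part of these cells in the results was not tested. Of the endothelial and fibroblast markers with a probe (11), the smooth muscle actin gene Acta2 was the only one measured, at 12.79 in the control, 12.22 with E5 and 12.31 with E14. The summed normalised intensity of that list was 7326 in the control, the highest of the 12 arrays, 4982 with E5 and 5325 with E14, against a lowest of 2069, and its part in the results was not tested.

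Both compounds left most of the transcriptome near the activated control, and what did differ was mostly lower. The standard deviation over genes of the difference from the control was 0.197 for E5 and 0.222 for E14, against 0.210 between E14 and E5. On the other compound arrays this standard deviation ran from 0.205 with E23 to 0.433 with E4 and 1.02 with E29. The E29 array stood apart: the chemokine gene Cxcl10, at 7.86 without activation and 14.13 in the activated control, was at 6.12 there. E29 was kept in the median of the 8 other compound arrays used below. With E5, 7 genes were at least 2-fold lower (0.0926% of the 7561) and 0 higher (0%). With E14, 19 were lower (0.251%) and 2 higher (0.0265%). Past 2-fold in either direction, E20 and E23 gave 3 genes each, E21 8, E18 22 and E19 28. E33 gave 73, E4 251 and E29 1829. The counts of E5 and E14 thus lay within the range of the other compound arrays. Lower past 2-fold with both compounds were 6 genes (0.0794%), and higher with both were 0 (0%). At 1.5-fold the counts were 52 lower (0.688%) and 18 higher (0.238%) with E5, 104 lower (1.38%) and 30 higher (0.397%) with E14, and 23 lower (0.304%) and 4 higher (0.0529%) with both. The 2 comparisons share the control array, and any error of that array enters both in the same direction: 30.4% of all measured genes lay below the control with both compounds by some amount.

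**Figure D1:**
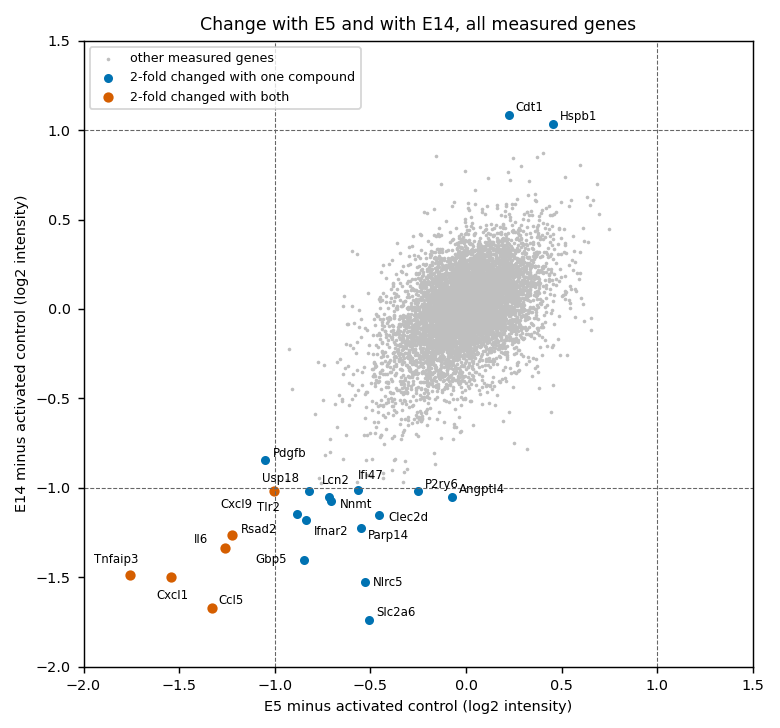
Each point is 1 of the 7561 measured genes; the horizontal axis is the log2 intensity with E5 minus the activated control, the vertical axis the same with E14, and dashed lines mark a 2-fold change. The 6 genes lower past 2-fold with both lie in the lower left corner, and 15 genes pass it with E14 and not with E5, against 1 (Pdgfb) with E5 and not with E14.

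The 6 genes at least 2-fold lower with both compounds were Tnfaip3, Cxcl1, Ccl5, Il6, Rsad2 and Cxcl9. They are an NF-kB feedback inhibitor, 4 secreted chemokines or cytokines and an antiviral enzyme, and all 6 were higher in the activated than in the non-activated control.

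Tnfaip3 encodes A20, a ubiquitin-editing enzyme that ends NF-kB signalling. Its level was 5.42 in the non-activated control, 8.28 in the activated control, 6.52 with E5 and 6.79 with E14. On the other compound arrays it was 8.90 with E4, 8.35 with E21, 8.08 with E23, 7.88 with E18, 7.82 with E33, 7.47 with E20 and 6.28 with E19, and it was not detected with E29. The E5 and E14 arrays thus lay below every other activated array except those of E19 and E29. The level was 3.38-fold lower with E5 and 2.81-fold lower with E14 than in the control, and 2.51-fold and 2.09-fold below the median of the 8 other compound arrays.

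Cxcl1 encodes a chemokine that attracts neutrophils through CXCR2. It was not detected in the non-activated control and measured 8.74 in the activated control, 7.20 with E5 and 7.24 with E14. The other compound arrays gave 9.12 with E4, 8.81 with E33, 8.64 with E23, 8.63 with E21, 8.12 with E20, 7.91 with E18 and 6.45 with E19, and E29 gave no detected level. Again E19 and E29 alone lay below the pair. The decrease was 2.91-fold with E5 and 2.83-fold with E14 against the control, and 2.27-fold and 2.20-fold against the median of the 8 arrays.

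Ccl5 encodes RANTES, a chemokine for T cells and monocytes. Its level was 6.16 without activation, 9.18 in the activated control, 7.85 with E5 and 7.51 with E14. Among the other compound arrays it ran from 7.18 (E19) and 7.48 (E29) through 7.95 with E33 to 9.20 with E21. Both compounds lay at the low end, above E19 and E29. Ccl5 was 2.52-fold lower with E5 and 3.19-fold lower with E14 than in the control; against the median of the 8 arrays the decrease was 1.67-fold and 2.11-fold.

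The activated control stood above the median of the 8 other compound arrays for all 6 shared genes. The distance was 0.43 for Tnfaip3, 0.36 for Cxcl1 and 0.59 for Ccl5. For the other 3 it was larger, at 0.88 for Il6, 0.75 for Rsad2 and 0.69 for Cxcl9. Il6, the cytokine interleukin-6, measured 6.76 in the activated control and was not detected with E5, with E14 or without activation, a decrease of at least 2.40-fold with E5 and at least 2.53-fold with E14. It was detected on 5 of the 12 arrays, the others being E4 (6.99), E21 (6.24), E23 (6.02) and E18 (5.76), so its absence from the detected genes is shared with E19, E20, E29 and E33. Rsad2 encodes viperin, an interferon-induced antiviral enzyme, and measured 5.97 without activation, 8.86 in the activated control, 7.64 with E5 and 7.59 with E14. The other compound arrays ranged from not detected with E29 and 6.56 with E4 to 8.94 with E21, with a median of 8.11. Rsad2 was thus 2.33-fold and 2.40-fold below the control but 1.39-fold and 1.43-fold below the median of the 8. Cxcl9, a ligand of the T-cell receptor CXCR3, was not detected without activation and measured 10.88 in the activated control, 9.88 with E5 and 9.86 with E14. All 8 other compound arrays lay below the control for Cxcl9, with a median of 10.19, and E33 (9.09) and E29 (not detected) lay below the pair. Its decrease was 2.0-fold with E5 and 2.03-fold with E14 against the control, at the edge of the 2-fold mark, and 1.24-fold and 1.26-fold against the median of the 8.

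**Figure D2:**
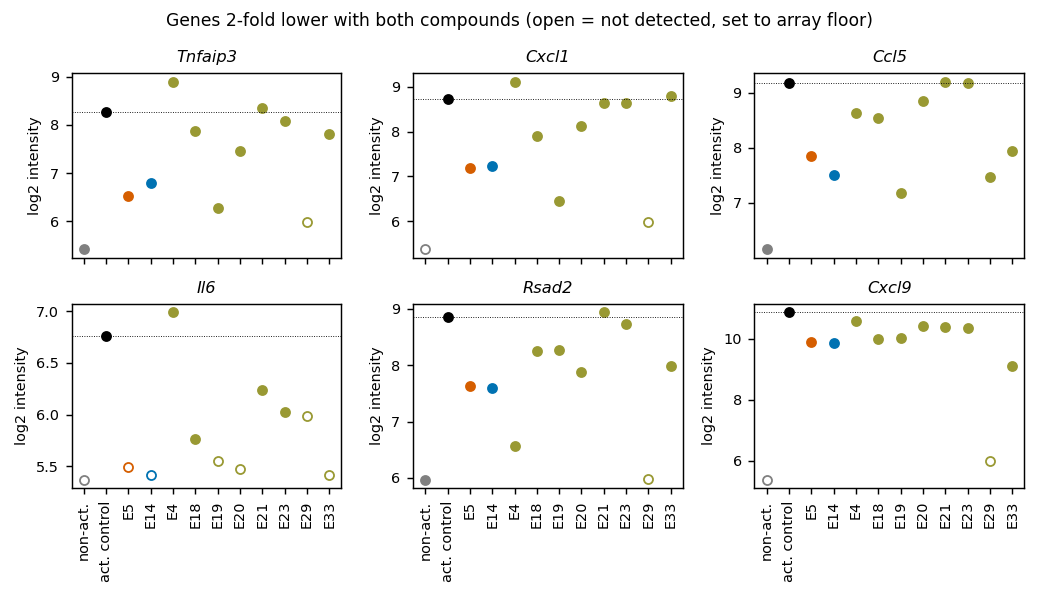
Log2 intensity (vertical axes) of the 6 genes lower past 2-fold with both compounds on each of the 12 arrays (horizontal axes); filled points are detected, open points are not detected and stand at the floor of their array, and the dotted line is the activated control. For Tnfaip3 and Cxcl1 only the E19 and E29 arrays lie below E5 and E14, while for Cxcl9 all 8 other compound arrays lie below the dotted line.

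The promoters of the shared genes are shown because these genes were lower than the activated control with both compounds. RefSeq (GRCm38.p6) gave the 250 bases before the start of 5 of the 6 genes, printed 5′ to 3′ on the strand of the gene, at chr10:19015411-19015660 (minus strand) for Tnfaip3, chr5:90890995-90891244 (plus) for Cxcl1, chr5:30012864-30013113 (plus) for Il6, chr12:26456453-26456702 (minus) for Rsad2 and chr5:92328080-92328329 (minus) for Cxcl9. Capitals mark the letters GGG, any 5 bases and CC, a loose form of the site that NF-kB binds, on either strand; runs longer than 10 letters are overlapping matches of both strands.
Tnfaip3: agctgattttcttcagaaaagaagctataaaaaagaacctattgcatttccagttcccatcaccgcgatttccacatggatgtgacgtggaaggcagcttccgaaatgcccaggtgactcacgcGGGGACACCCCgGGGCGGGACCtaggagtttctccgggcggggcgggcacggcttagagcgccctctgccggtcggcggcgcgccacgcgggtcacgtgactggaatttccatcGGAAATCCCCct
Cxcl1: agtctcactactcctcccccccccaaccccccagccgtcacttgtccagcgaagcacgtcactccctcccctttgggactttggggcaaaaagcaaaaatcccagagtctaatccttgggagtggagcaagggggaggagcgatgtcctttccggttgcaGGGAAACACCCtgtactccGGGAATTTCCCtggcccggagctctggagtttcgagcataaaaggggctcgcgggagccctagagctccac
Il6: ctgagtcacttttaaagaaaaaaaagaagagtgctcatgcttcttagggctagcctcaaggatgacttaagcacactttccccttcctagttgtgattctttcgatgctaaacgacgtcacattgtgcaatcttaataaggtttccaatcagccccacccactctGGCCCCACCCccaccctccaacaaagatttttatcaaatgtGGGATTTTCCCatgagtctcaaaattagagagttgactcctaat
Rsad2: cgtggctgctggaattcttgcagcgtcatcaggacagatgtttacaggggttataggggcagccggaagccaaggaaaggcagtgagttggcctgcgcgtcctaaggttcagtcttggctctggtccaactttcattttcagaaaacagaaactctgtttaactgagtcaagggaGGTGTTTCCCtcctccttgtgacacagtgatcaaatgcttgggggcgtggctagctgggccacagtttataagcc
Cxcl9: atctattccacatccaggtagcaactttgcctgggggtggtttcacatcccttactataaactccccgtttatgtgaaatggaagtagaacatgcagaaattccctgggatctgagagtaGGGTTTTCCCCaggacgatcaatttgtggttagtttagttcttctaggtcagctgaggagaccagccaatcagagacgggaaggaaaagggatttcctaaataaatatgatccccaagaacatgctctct
Each of the 5 windows held these letters, and so did 12 of the 14 windows found among the 23 genes lower past 1.5-fold with both compounds. The letters are common: 62.5% of the 6243 measured genes with a window held them, and 45.8% of all 32851 windows. The AP-1 letters TGANTCA stood in 4 of the 14 windows, those of Tnfaip3, Il6, Rsad2 and Nfkbie, against 4.02% of measured genes. The interferon response letters (GAAA, any 2 bases, GAAA) stood in 2 of 14 (Rsad2 and Gbp5) against 2.56%, and the interferon-gamma activated letters TTCNNNGAA in 2 of 14 (Gbp5 and Ifnar2) against 5.78%. The cAMP response letters TGACGTCA stood in 0 of 14 against 2.90%, the shorter CGTCA that they contain in 5 of 14 against 28.6%, the E-box CACGTG in 1 of 14 against 8.81%, and the serum response element in 0 of 14 against 1.20%. All were searched on both strands, and a match is a description of letters, not a measured site.

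The genes lower with both compounds at the 1.5-fold mark were mostly genes higher after activation. Of the 23, Il6, Cd40 and Irf7 stood at the floor with both compounds. They were measured through the control alone, so they could only count as lower and their decreases are lower limits. Of the 23, 18 were at least 2-fold higher in the activated than in the non-activated control, against 3.21% of all measured genes. The control array enters both counts; by the median of the 8 other compound arrays, which leaves it out, 13 of the 23 were 2-fold above the non-activated control, against 2.46% of all measured genes. Nfkbie, an inhibitor of NF-kB, came closest to the 2-fold mark, at 8.37 in the control, 7.43 with E5 and 7.41 with E14 (1.91-fold and 1.94-fold lower). Tlr2, a receptor for bacterial lipoproteins, measured 10.54, 9.66 and 9.39, and all 8 other compound arrays lay below the control for it. Pdgfb, a platelet-derived growth factor chain, measured 10.32 in the control, 9.27 with E5 and 9.48 with E14 and was the single gene past 2-fold with E5 (2.07-fold) and not with E14 (1.80-fold). These 2 values differed by 0.20 log2 units, about the standard deviation of all genes between the pair. Gbp5, a guanylate-binding protein, measured 8.97, 8.13 and 7.57, and Usp18, which removes ISG15 and restrains interferon receptor signalling, 8.68, 7.86 and 7.66. Ifnar2, a subunit of the type I interferon receptor, measured 7.21, 6.37 and 6.02. Vcam1, an adhesion molecule for leukocytes, measured 11.76, 10.99 and 10.81. Lcn2, a marker of reactive astrocytes that was only 1.31-fold higher in the activated than in the non-activated control, measured 12.30, 11.58 and 11.25. Nnmt, nicotinamide N-methyltransferase, measured 7.90, 7.19 and 6.83, and with E14 it lay below all 8 other compound arrays.

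How much of a shared decrease remained depended on the reference. For the 23 genes the median change from the control was -0.82 with E5 and -1.02 with E14, whereas from the median of the 8 other compound arrays it was -0.31 and -0.38. The control itself lay 0.57 above that median, was the highest of the 11 activated arrays for 12 of the 23 genes and among its top 3 for 22, against 5.9% of all measured genes for which it was the highest. Of all measured genes 51.4% lay below the median of the 8 with E5 and 48.6% with E14. Both compounds were below it for 20 of the 23 genes. The share of all measured genes below it with both was not counted. The same low E5 and E14 values chose the 23, so the count is a description only. Both compounds were at least 1.5-fold below both references for 3 genes (0.0397% of those measured), namely Tnfaip3, Cxcl1 and Ccl5. At 2-fold below both references the count was 2 (0.0265%), Tnfaip3 and Cxcl1. Without any 1 of E4, E21, E23 and E33 in the reference median, Cxcl1 was no longer 2-fold below it, at -0.92 with E5 and -0.88 with E14. Without background correction the change of Tnfaip3 with E14 from the control was -0.98, just short of 2-fold. Whether the height of the control array reflects the compounds or that array was not tested, and with 1 control array the alternatives cannot be told apart.

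**Figure D3:**
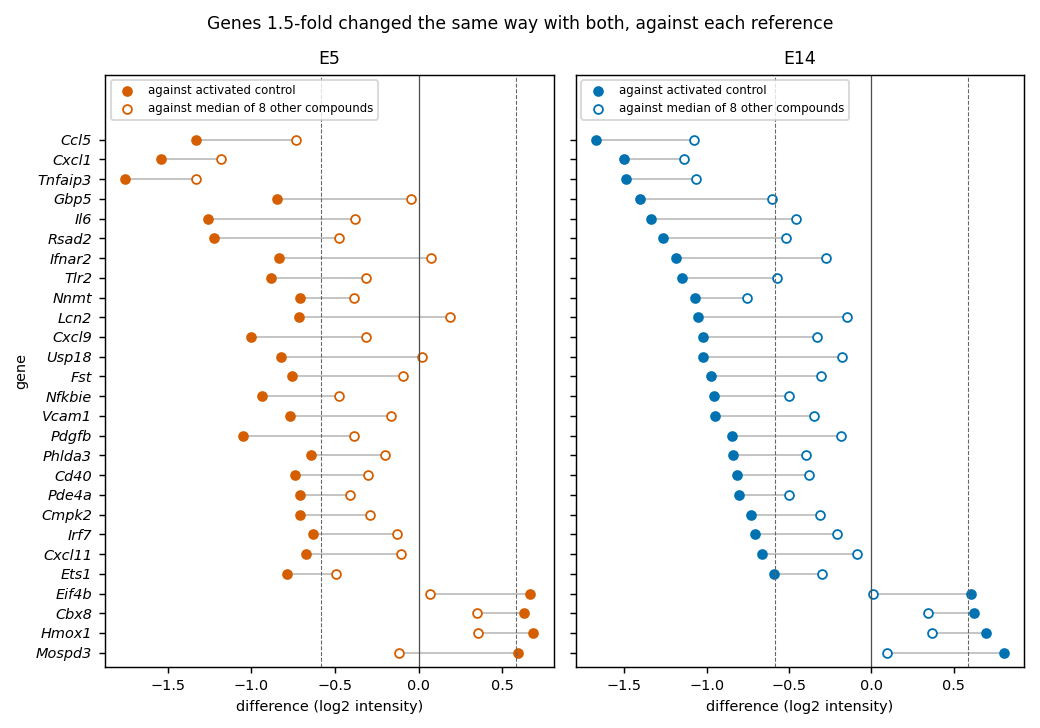
Each row is 1 of the 27 genes changed at least 1.5-fold in the same direction with both compounds; the horizontal axes give the difference in log2 intensity for E5 (left) and E14 (right), with filled points against the activated control, open points against the median of the 8 other compound arrays, and dashed lines at 1.5-fold. The open points lie closer to 0 than the filled points, and Ccl5, Cxcl1 and Tnfaip3 keep both points past the dashed line in both panels.

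Only 4 genes were at least 1.5-fold higher with both compounds, and none of them passed that mark against the median of the 8 other compound arrays. Hmox1 encodes heme oxygenase 1, an Nrf2 target that degrades heme. It measured 12.31 in the control, 12.99 with E5 and 13.01 with E14, 1.61-fold and 1.62-fold higher. The other compound arrays ran from 10.05 (E29) to 13.24 (E19), and 6 of the 8 lay below E5 and below E14. Against their median Hmox1 was 1.28-fold and 1.29-fold higher. Other Nrf2 targets were Srxn1, sulfiredoxin, with changes of 0.50 and 0.40, and Gclm, a subunit of the enzyme that makes the glutathione precursor, with 0.40 and 0.05. Over the 16 measured genes of the Nrf2 list the medians were 0.04 and 0.05, the second -0.06 with arrays scaled to the reference genes, and Hmox1 was the only member past 1.5-fold. Mospd3 (5.72, 6.32 and 6.53 in control, E5 and E14), the translation factor gene Eif4b (6.21, 6.87 and 6.82) and the Polycomb gene Cbx8 (5.66, 6.29 and 6.29) were the others, and the control was below all 8 other compound arrays for Mospd3 and Eif4b.

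E14 differed from the control more often than E5 did. All 19 genes lower past 2-fold with E14 were also below the control with E5, against 49.6% of all measured genes. The same control array enters both changes. It was the highest of the 11 activated arrays for 10 of the 19, against 5.9% of all measured genes. With E14, 18 of the 19 lay below the median of the 8 and 7 lay at least 1.5-fold below it. The shares over all measured genes were 48.6% and 0.317%. For the 19 genes the median change with E5 was -0.82, and 12 of them were at least 1.5-fold lower with E5, against 0.688%. By the rule that a gene must also differ 1.5-fold between the 2 compounds, 6 genes were lower with E14 alone, 1 was higher with E14 alone and 0 were changed with E5 alone. The 6 were Slc2a6, Nlrc5, Parp14, Clec2d, Angptl4 and P2ry6, and the 1 was Cdt1.

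Slc2a6 encodes a member of the facilitative glucose transporter family. It measured 6.13 without activation, 8.49 in the activated control, 7.99 with E5 and 6.75 with E14, so that E14 was 3.34-fold below the control and 2.35-fold below E5. The other compound arrays ran from 6.18 with E29 and 6.35 with E4 to 8.68 with E23, with a median of 7.28. E14 lay below this median and E5 above it. Nlrc5, a transactivator of MHC class I genes, measured 7.04 in the control, 6.51 with E5 and 5.51 with E14, and was not detected without activation. It was 2.88-fold lower with E14 than in the control, but it was detected on 7 arrays only, and with E4, E19, E29 and E33 it was not detected.

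Parp14, an ADP-ribosyltransferase induced by interferons, measured 6.98 without activation, 11.54 in the activated control, 10.99 with E5 and 10.31 with E14. The decrease with E14 was 2.34-fold from the control, 1.60-fold from E5 and 1.76-fold from the median of the 8, and only E4 (9.20) and E29 (6.42) were lower. Clec2d, a lectin-like ligand of an inhibitory receptor of natural killer cells, measured 6.22 without activation, 9.44 in the activated control, 8.99 with E5 and 8.28 with E14. It was lower still with E18 (7.58) and E4 (7.43) and was not detected with E29; E14 was 2.23-fold below the control and 1.62-fold below the median of the 8. For these 2 genes the E5 array lay within 1.10-fold of that median.

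Angptl4, an inhibitor of lipoprotein lipase, and P2ry6, a receptor for UDP, were at like levels in both controls. Angptl4 measured 8.43 without activation, 8.49 in the activated control, 8.42 with E5 and 7.44 with E14. Its median over the 8 arrays was 7.73, and E5 and the control lay above all 8. P2ry6 measured 7.33, 7.25, 7.0 and 6.23 in the same order, and its median over the 8 was 6.0. For P2ry6 the direction depended on the reference: E14 was 1.02 log2 units below the control but 0.24 above the median of the 8.

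Cdt1, which licenses origins of DNA replication, measured 6.53 without activation, 5.72 in the activated control, 5.94 with E5 and 6.81 with E14. It was 2.12-fold higher with E14 than in the control and 1.77-fold above the median of the 8, and the highest of the others was 6.46 with E18. Hspb1, a small heat shock protein gene, was the other gene higher past 2-fold with E14, at 5.76 in the control, 6.21 with E5 and 6.79 with E14, just short of 1.5-fold above E5. Both genes were dim: their levels lay within about 1.5 log2 units of the floor.

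**Figure D4:**
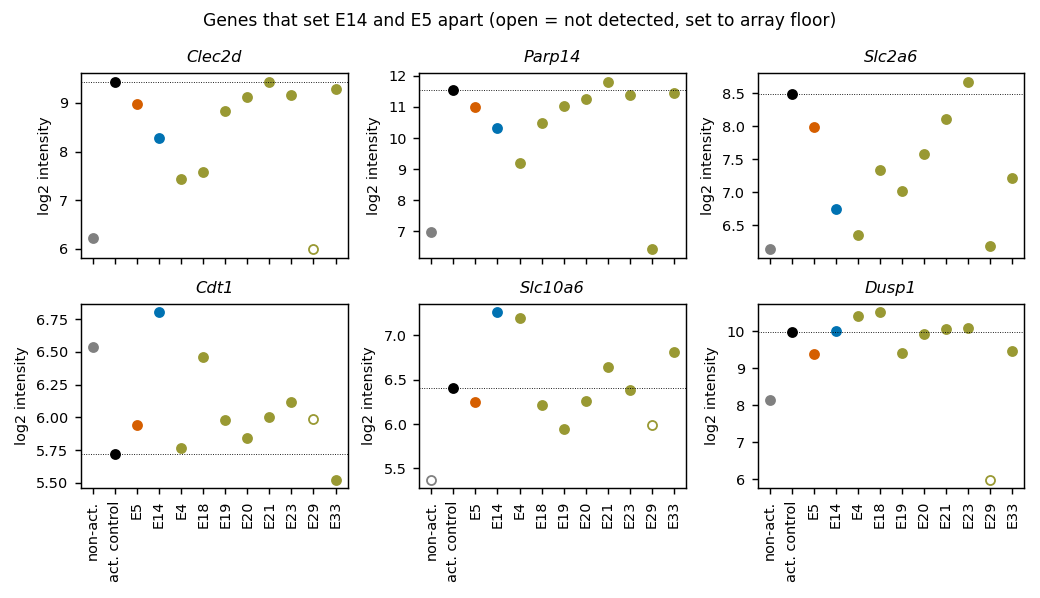
Log2 intensity (vertical axes) on each of the 12 arrays (horizontal axes) of 6 genes that differ between E14 and E5; open points are not detected and stand at the floor of their array, and the dotted line is the activated control. E14 lies below E5 for Clec2d, Parp14 and Slc2a6 and above it for Cdt1, Slc10a6 and Dusp1, while several other compound arrays take values on either side.

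A direct comparison of E14 with E5 leaves the control out. Here 5 genes were at least 2-fold lower with E14 (0.0661%) and 1 higher (0.0132%), and at 1.5-fold 60 were lower (0.794%) and 34 higher (0.45%). The 5 were Slc2a6 (-1.23), Gbp11 (-1.10), Ccno (-1.02), Txnip (-1.0) and Nlrc5 (-1.0), and the 1 higher was Slc10a6 (1.01). Gbp11, a guanylate-binding protein, Ccno, a cyclin needed for multiciliated cells, and Txnip, an inhibitor of thioredoxin, are named because the count is small and were chosen after their values were seen. Each of these 3 was above the control with E5 (0.32, 0.44 and 0.25) and below it with E14 (-0.79, -0.58 and -0.75), all by less than 2-fold. Slc10a6, a transporter of sulfated steroids, measured 6.41 in the control, 6.25 with E5 and 7.26 with E14, above all 8 other compound arrays, of which E4 was the highest at 7.20. Its other detected probe, near the floor, changed by 0.02 with E14.

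A stricter rule asked for 1.5-fold from the control, from the median of the 8 and from the other compound, all in the same direction. Lower with E5 it left Dusp1, a MAP kinase phosphatase induced by many stimuli, which measured 9.98 in the control, 9.38 with E5 and 10.00 with E14. It also left Mrm3, a methyltransferase for mitochondrial ribosomal RNA, at 7.71, 7.07 and 7.78. Dusp1 was near its E5 level with E19 (9.40) and E33 (9.45) and stood at the floor with E29. Higher with E5 the rule left Bst2, tetherin, which was detected at 6.14 with E5, at 5.45 with E14 and on no other array. With E14 it left Parp14, Clec2d, Cdt1 and Slc10a6 again. The others lower with E14 were Asap1, an activator of Arf GTPase hydrolysis (8.73, 8.42 and 7.84 in control, E5 and E14), Dtx4, a ubiquitin ligase linked to Notch (7.61, 7.65 and 6.97), and Trim16 (6.05, 6.24 and not detected). The others higher were Il19, a cytokine of the interleukin-10 family (8.27, 8.52 and 9.12), and Csnk1g1, a casein kinase gene near the floor with E14 (6.29). Il19 was 3.01-fold above the median of the 8 with E14 and 1.99-fold with E5, and the control was above 6 of the 8 arrays as well.

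Read by gene list, 4 lists had medians at least 0.2 below 0 with both compounds: cytokines and chemokines, NF-kB feedback, type I interferon-stimulated genes and p53 targets. The 13 measured p53 targets had medians of -0.21 with E5 and -0.25 with E14, which were 0.07 and -0.01 against the median of the 8. Over all measured genes the median change was 0.00 with E5 and 0.01 with E14. Of all measured genes 49.6% lay below the control with E5, 46.9% with E14 and 30.4% with both. Lower past 1.5-fold were 0.688% with E5 and 1.38% with E14, shares that stand beside each list count here and below. All 12 measured inflammatory cytokines and chemokines were below the control with both compounds, with medians of -0.57 and -0.37. Of these, 6 with E5 and 5 with E14 were lower past 1.5-fold. Only 9 of the 12 were detected on all 3 arrays. Il6 and Lif stood at the floor with both compounds and were measured through the control alone, so they could only count as lower. Ccl2, the monocyte chemokine, measured 12.07 in the control, 11.46 with E5 and 11.76 with E14, and Cxcl10, another CXCR3 ligand, 14.13, 13.92 and 13.74, near the top of the range of the arrays. Tnf and Il1b were not detected on the 3 arrays. Of 11 NF-kB genes, 10 were below the control with E5 and 11 with E14 (medians -0.45 and -0.40), and 3 and 4 were lower past 1.5-fold. Nfkbia, the main inhibitor of NF-kB, changed by -0.49 and -0.37, and Tnip1, a partner of A20, by -0.34 and -0.71. Against the median of the 8 the list medians were -0.24 and -0.25 for cytokines and -0.17 and -0.20 for NF-kB genes.

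For 18 type I interferon-stimulated genes the medians were -0.34 with E5 and -0.32 with E14, with 4 and 7 members lower past 1.5-fold and 1 higher with each. Of the 18, 16 were detected on all 3 arrays, and Irf7 stood at the floor with both compounds. Oasl2, an antiviral gene of the oligoadenylate synthetase-like family, changed by -0.57 and -0.97. For 25 genes of the interferon-gamma response and antigen presentation the medians were -0.04 and -0.27; 1 was lower past 1.5-fold with E5 (Gbp5) and 6 with E14. Of these 25, 18 were lower with E14 than with E5, against 49.3% of all measured genes, and the median difference was -0.21, about the standard deviation of all genes between the pair. Gbp3, a guanylate-binding protein, changed by -0.48 and -0.69, and Ifi47, an immunity-related GTPase, by -0.57 and -1.01. Cd274, the gene of PD-L1, a ligand that restrains T cells, lay 65.8-fold higher in the activated than in the non-activated control and measured 13.22 in the control, 13.10 with E5 and 13.00 with E14. Against the median of the 8 the medians were -0.03 and -0.13 for type I genes and 0.12 and -0.12 for the interferon-gamma list.

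In a few lists the compounds differed from each other, by small amounts. All 21 measured immediate early and AP-1 genes were below the control with E5 (median -0.28) and 14 with E14 (median -0.09). The shares over all measured genes were 49.6% and 46.9%. Against the median of the 8 the medians of this list were -0.17 and -0.05. For Fosb and Nr4a2 the control and E5 arrays stood at their floors, so their E5 change of -0.03 is no measured decrease. Ier5 stood at the floor with both compounds and was measured through the control alone, so it could only count as lower. Srf, which encodes the serum response factor, was the only member past 1.5-fold, at 8.58 in the control, 7.65 with E5 and 8.35 with E14. Egr1 measured 9.16, 8.83 and 9.40, and Fos 8.95, 8.85 and 8.80. Of 15 cholesterol synthesis genes, 13 were above the control with E5 (median 0.14) and 11 below it with E14 (median -0.09). Of the 15, 14 were lower with E14 than with E5, with a median difference of -0.26. The shares over all measured genes were, in the same order, 50.2%, 46.9% and 49.3%. Against the median of the 8 the cholesterol list stood at 0.29 with E5 and 0.05 with E14, so the direction with E14 turned. None of the 15 passed 1.5-fold against the control; Mvd, an enzyme of the mevalonate pathway, measured 7.36, 7.82 and 7.56, and Idi1, isopentenyl diphosphate isomerase, 7.11, 7.15 and 6.78. For 14 astrocyte markers the medians were 0.03 and 0.08 with 0 past 1.5-fold, although with arrays scaled to the reference genes, which moved the median of all genes to -0.11 with E14, the second was -0.02, and against the median of the 8 they were -0.04 and -0.05. Gfap, the astrocyte intermediate filament, measured 12.37 in the control, 12.59 with E5 and 12.43 with E14. The reference genes had medians of -0.01 and 0.01.

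**Figure D5:**
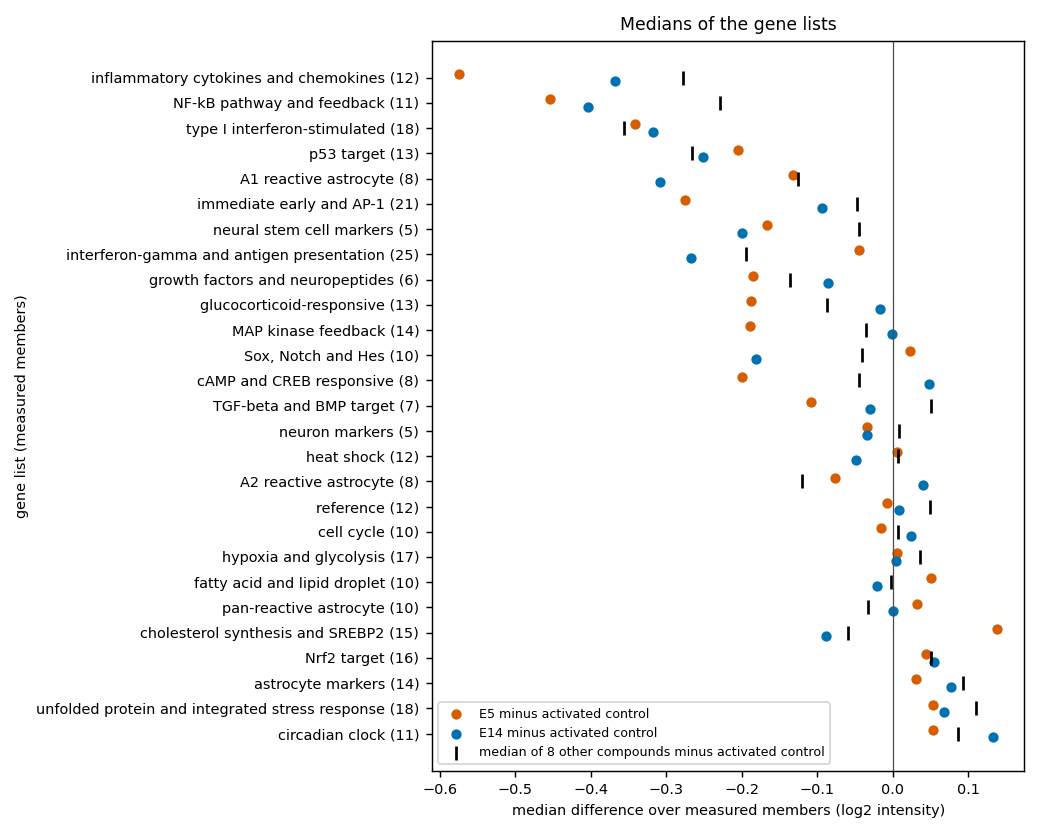
Each row is 1 of the 27 gene lists with at least 5 measured members (number in brackets); the horizontal axis is the median difference from the activated control in log2 intensity for E5, for E14 and, as black bars, for the median of the 8 other compound arrays. The cytokine and NF-kB lists lie farthest to the left with both compounds, and for type I interferon-stimulated and p53 target genes the black bar lies as far left as the compounds.

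Genes higher after activation were also selected without using the 3 arrays, from the 8 other compound arrays: 186 measured genes had a median there of 2-fold or more over cells without activation. With E5, 141 of the 186 were below the activated control (75.8%, against 49.6% of all measured genes), with a median change of -0.21. With E14 it was 125 (67.2%, against 46.9%), with a median of -0.19. Past 1.5-fold, 19 were lower and 0 higher with E5, and 35 lower and 5 higher with E14. Those lower were 10.2% and 18.8% of the 186, against 0.688% and 1.38% of all measured genes. Those higher were 0% and 2.69%, against 0.238% and 0.397%. The control array itself was above the median of the 8 for 142 of the 186 (76.3%, against 47.1% of all measured genes), by a median of 0.17. Between E14 and E5 the median difference was 0.00, with 91 lower and 93 higher with E14. Against the median of the 8, which chose these genes, the medians were -0.02 with E5 and -0.03 with E14.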

How the data were processed

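The authors deposited mean bead intensities of 25697 probes on 12 arrays, which the file header calls non-normalized, and with each of them a deposited detection p-value. Per the submitters' processing notes the software was GenomeStudio 2010.3; any background subtraction by the authors is not stated in the labels. The authors also deposited processed intensities, linear with a floor of 10 and otherwise of unstated centring, whose array medians were 14.9 to 15.0.

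Intensities were background-corrected, quantile-normalised over all 12 arrays and log2-transformed by neqc (offset 16) of limma 3.58.1 in R 4.3.3. Counts used pandas 2.3.3 and numpy 2.4.6 (Python 3.11.15), tested on simulated data, and figures with matplotlib 3.10.9. In the platform annotation 23978 probes had 1 gene symbol, 0 had several and 1719 were not listed; 23962 matched RefSeq (GRCm38.p6) by gene ID and 0 symbols changed. A gene was its brightest probe, and 4777 genes had several. Genes were called at 2-fold, with 1.5-fold as a lower mark. With 1 array per group, no p-value or error was computed, and their number limits the precision.

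The members and the 31 gene lists (523 genes, 469 with a probe, 306 measured) were chosen with earlier results of these data known. Named were genes past 2-fold with E5 or E14, the 12 per direction most changed with both, 6 per compound and direction past 1.5-fold from all references, 4 members per list, and 12 genes looked up; symbols such as Gm or Rik were to be counted only. Of the looked-up genes, Nos2, Tnf and Il1b were not detected on the 3 arrays. Alternatives covered normalisation, background, offset, detection, probes, scaling, fold and reference. No replicate of any group was used here.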

Additional observations from a re-analysis of the deposited data

How the results depend on the processing

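At 2-fold, 7 genes were called with E5, 21 with E14, 6 between E14 and E5, 6 with both and 7 with 1 compound only, and 4 lists had both medians at least 0.2 from 0 on the same side. With median scaling these were 7, 18, 4, 5, 8 and 4, with the authors' deposited processed intensities 6, 23, 9, 5, 8 and 3. Without background correction they were 3, 7, 0, 2, 2 and 2, and with an offset of 50 they were 5, 11, 1, 4, 4 and 3; both compress changes of dim genes by construction. Scaling to the reference genes, which moved the median of all genes to 0.03 with E5 and -0.11 with E14, gave 32 calls with E14 and 15 with 1 compound only. At 1.5-fold the counts were 70, 134, 94, 27 and 37.

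Against the median of the 8 other compound arrays 3 genes were called with E5, 4 with E14, 2 with both and 2 with 1 compound only, and 1 list shifted with both. With the other 10 activated arrays as the reference median these were 2, 4, 2, 1 and 1. Leaving out each of the 8 arrays in turn, a choice made after seeing the data, gave 1 (without E33) to 6 (without E18) with E5, 4 to 5 with E14, 1 (without E33) to 4 (without E18) with both and 1 (without E19 or E29) to 3 with 1 compound only; without E23 it was 5 with E5. P2ry6 with E14 turned to 0.24 and 0.089 above the medians of the 8 and of the 10 arrays, and the median of the p53 target list with E5 (-0.21 against the control) to 0.069 and 0.051; the cause was not tested. Of the 131 named genes, 22 were past 2-fold with E5 or E14, so most values were not past that mark at the outset. Of 2358 values for named genes under an alternative, 2262 stayed on their side of the 2-fold mark, 83 fell below it, 11 passed it and 2 turned. The 83 are thus a larger share of the calls than of the 2358. No paired analysis was possible because each group is 1 array. Signal over background limits dim genes: Il6 with E5 ranged from -1.57 to -0.53 and Cdt1 with E14 from 0.48 to 1.30 over 8 settings.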

Other observations

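Among genes lowered by activation, 185 were selected as at least 2-fold lower in the median of the 8 other compound arrays than in the non-activated control. With E5 their median change from the activated control was -0.03, with 3 lower and 1 higher past 1.5-fold. With E14 it was -0.12, with 11 lower and 1 higher. Those lower were 1.62% of the 185 with E5 and 5.95% with E14, against 0.688% and 1.38% of all measured genes. Those higher were 0.541% with each, against 0.238% and 0.397%. Of the 185, 118 were lower with E14 than with E5 (63.8%, against 49.3% of all measured genes). The activated control lay 0.14 above the median of the 8 for these genes, which that median had chosen. Ddit4, a stress-induced inhibitor of mTOR, measured 7.72 in the control, 7.66 with E5 and 7.06 with E14, and Sox2, a neural stem cell transcription factor, 8.15, 8.40 and 7.71.

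Of the p53 target list, Cdkn1a, the cell cycle inhibitor p21, measured 10.89 in the control, 10.45 with E5 and 9.94 with E14, and Phlda3, an inhibitor of AKT, 9.88, 9.24 and 9.04. Gadd45a, a DNA damage gene, went the other way, at 9.81, 10.36 and 10.41. The list median was -0.21 with E5 and -0.25 with E14, and the activated control lay 0.27 above the median of the 8.

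Of 603 measured probes that the platform annotation did not list, 0 were 2-fold changed with E5 and 1 was lower with E14, by at least 1.07 log2 units; its gene is not named here. Among named genes past 2-fold with a compound or past 1.5-fold with both, 7 other probes were detected. Their sign was the same in 7 of 7 cases with each compound, but not always the size. The second probe of Mospd3 changed by 0.07 and 0.08, against 0.59 and 0.81. That of Nnmt stood at the floor with both compounds, a decrease of at least 0.24 and 0.31, against changes of -0.71 and -1.07.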
